A study of Mus musculus with 4 samples.

Results

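The synaptonemal complex genes described here were 10 protein-coding genes of the meiotic chromosome axis and the structure that joins paired chromosomes: Sycp1, Sycp2, Sycp3, Syce1, Syce2, Syce3, Tex12, Hormad1, Hormad2 and Fkbp6. They were taken by gene symbol out of 15733 listed genes, a choice made with earlier results of these data known, and all 10 were found and passed the filter on low counts. They were read in 4 RNA-seq libraries of mouse pachytene spermatocytes. Dissociated testicular cells had been exposed outside the body for 12 h to 2.5 µM BMH21 (2 libraries) or to the solvent DMSO, called mock (2 libraries). A cell sorter then collected the pachytene cells by their staining with a Hoechst DNA dye. BMH21 is a DNA intercalator that blocks transcription by RNA polymerase I. Genotype, strain and age are not given in the labels, and the design text calls the libraries of a condition biological replicates.

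In meiotic prophase each chromosome is folded along a protein axis, and the synaptonemal complex zips the axes of homologous chromosomes together. SYCP2 and SYCP3 form the lateral elements along each axis, SYCP1 forms the transverse filaments that bridge the gap, and SYCE1, SYCE2, SYCE3 and TEX12 form the central element in the middle. HORMAD1 and HORMAD2 carry HORMA domains, mark axes that are not yet synapsed and leave them as synapsis proceeds. FKBP6 is an immunophilin that was first described on the synaptonemal complex in mouse and is also needed for piRNA production. At pachytene the autosomes are fully synapsed, whereas most of the X and Y axes are not.

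A feature that the choice of genes did not use was the E-box CACGTG, a palindromic site read by basic helix-loop-helix factors such as MAX with its partners. In windows from 250 bases before to 50 bases after each RefSeq start (GRCm38.p6), 6 of the 10 genes held it: Sycp1, Sycp3, Syce2, Tex12, Hormad1 and Fkbp6. Of all 27025 genes with such a window, 8.09% held it. The share was larger among autosomal genes that passed the filter on low counts, where 1128 held it and 9179 did not. Genes with several listed starts were searched at each of them. The stretches with the E-box are shown because, of 4 motifs searched, it was in the most members. That choice was made with the calls known. The E2F6 site TCCCGC, described further on, was in 5 members, which also include all 4 that rose after BMH21. With only the 250 bases before the start searched, TCCCGC was in 4 members, without Sycp1, and the E-box in the same 6. Each stretch is written 5′ to 3′ on the gene's own strand, with the E-box in capitals.
Sycp1, chr3:102936177-102936206, minus strand: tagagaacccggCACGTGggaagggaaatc
Sycp3, chr10:88459511-88459561, plus strand: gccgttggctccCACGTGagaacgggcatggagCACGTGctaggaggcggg
Hormad1, chr3:95559608-95559674, plus strand: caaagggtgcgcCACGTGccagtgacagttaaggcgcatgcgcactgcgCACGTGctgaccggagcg
Syce2, chr8:84872158-84872187, plus strand: cgtttcattcagCACGTGctcggggcgggg
Tex12, chr9:50561344-50561373, minus strand: ccgcgagactgtCACGTGgctcgcgcgctg
Fkbp6, chr5:135350064-135350157, minus strand: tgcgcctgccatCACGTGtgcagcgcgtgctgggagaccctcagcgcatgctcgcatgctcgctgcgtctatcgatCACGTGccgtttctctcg

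All the sites lay before a listed start. The first base of the E-box was 94 bases before the start in Sycp1 and 93 in Tex12. Sycp3 held a pair, 64 and 43 bases before the start, and Hormad1 a pair 57 and 20 bases before the first of its 2 listed starts. Fkbp6 held a pair 101 and 37 bases before the first of its 2 starts, and 232 and 168 bases before the second. In Syce2 the E-box was 88 bases before the second of 2 listed starts and downstream of the first, whose own window held none.

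**Figure D1:**
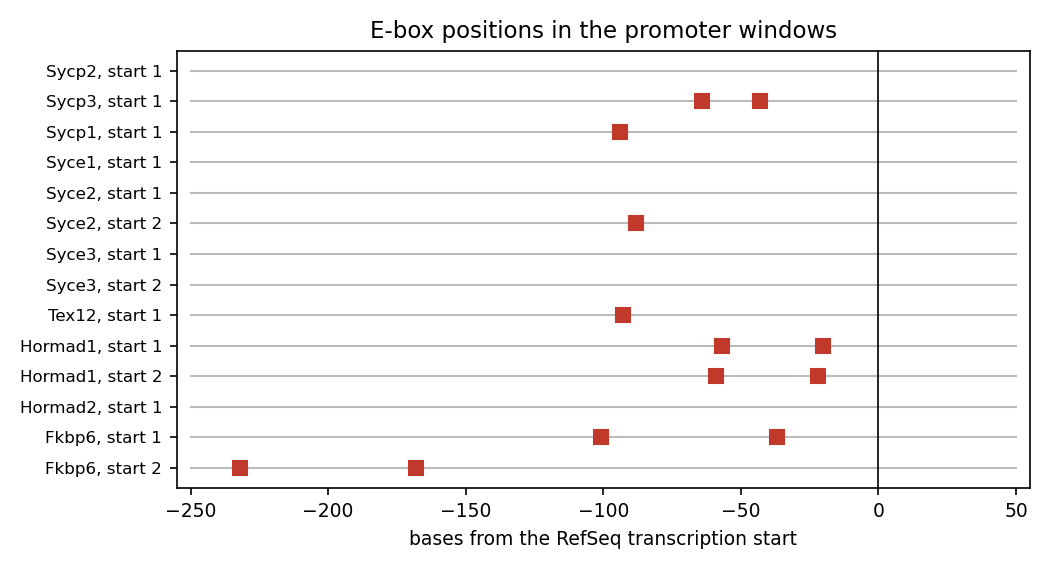
Positions of the E-box in the promoter windows, with 1 row for each RefSeq start of each gene; the x axis gives bases from the start (0), grey lines span the window and red squares mark the first base of each site. Sycp3, Hormad1 and Fkbp6 held pairs, and Sycp2, Syce1, Syce3 and Hormad2 held none.

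The libraries held 33338160 and 37555727 counts (BMH21 replicates 1 and 2) and 41548269 and 30964370 counts (mock replicates 1 and 2). Markers of the sorted stage were abundant: the 8 pachytene markers summed to 9238 and 9378 CPM (the count scaled to library size with TMM factors) in BMH21 libraries and to 9103 and 9273 CPM in mock libraries, led by the lactate dehydrogenase gene Ldhc and the chaperone gene Hspa2, with 2 of 8 called higher and 5 lower. The 8 markers of leptotene and zygotene, the stages at which the axis is built, summed to 164 and 161 CPM in BMH21 libraries and to 168 and 167 CPM in mock libraries, most of it from Spo11 and Iho1, with 1 of 8 called higher and 2 lower. Markers of round spermatids summed to 233 to 234 CPM in BMH21 and to 222 to 225 CPM in mock libraries, led by Prm2 and Tnp2, with 0 of 8 called. Summed levels of 7 spermatogonial markers, led by Gfra1 and Kit, were 14.1 and 16.9 CPM in BMH21 and 17.9 and 19.4 CPM in mock libraries, and 2 of 5 tested fell. Somatic markers were low but not all near 0: 2 Sertoli cell markers (Amh and Clu) summed to at most 2.48 CPM, 3 Leydig cell markers (led by Star and Insl3) to at most 9.54 CPM and 6 blood and interstitial markers (led by Csf1r and Pecam1) to at most 8.58 CPM in any library. Star was at 6.07 and 6.61 CPM in BMH21 libraries, against 9.01 and 8.93 CPM in mock libraries, a level like that of the lowest members, and it fell (log2 fold change -0.50). The part of these differences in the results was not tested, and in such pooled cells fewer cells of a type and less RNA per cell cannot be told apart.

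After BMH21, the synaptonemal complex transcripts did not change as a block. Sycp3, Syce2, Hormad1 and Sycp1 rose by 1.21-fold to 1.66-fold, Sycp2 fell to 0.913 of its mock level, and Syce1, Syce3, Tex12, Hormad2 and Fkbp6 did not pass the test. Thus 4 of 10 members were called higher and 1 lower at a Benjamini-Hochberg adjusted p under 0.05 in edgeR's quasi-likelihood test of BMH21 over mock, against 16.5% and 12.5% of 13793 tested genes; in either direction, 5 of 10 were called, against 29.1%. The split over all genes depended on scaling, with 2282 higher and 1731 lower under TMM but 1805 higher and 2480 lower under upper quartile scaling, which left all 5 calls of the members in place. Among the 7560 autosomal genes within the members' CPM range these shares were 20.2% and 17.3%. The median log2 fold change was 0.22 over the members and 0.00 over all tested genes, whose middle 50% lay between -0.17 and 0.18. The scaling centres most genes near no change, so a change common to all transcripts could not be seen. The 2 BMH21 libraries lay above both mock libraries for 4 members and below both for 1, against 30.9% and 29.9% of tested genes.

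**Figure D2:**
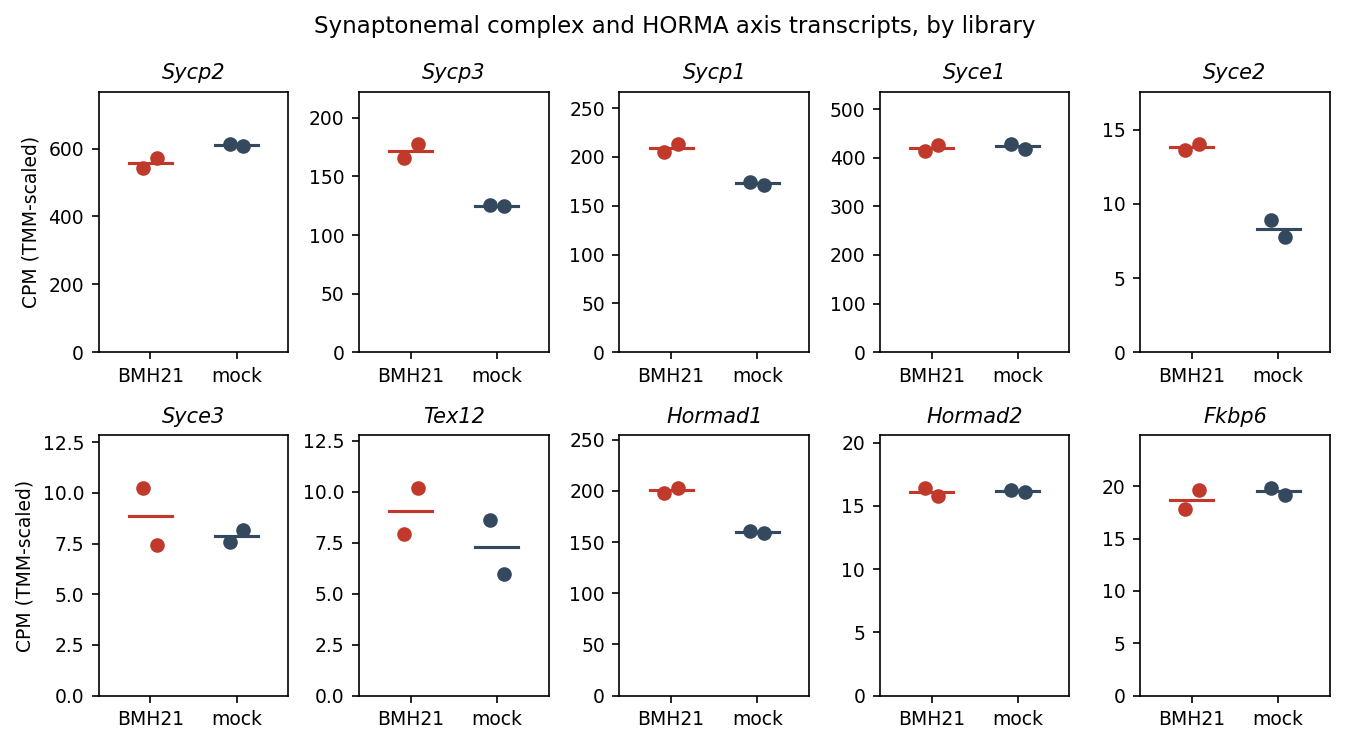
Level of each of the 10 transcripts in every library, in TMM-scaled CPM on linear axes that start at 0; points are libraries and bars are means of 2. The groups are separate in Sycp2, Sycp3, Sycp1, Syce2 and Hormad1 and overlap in the other 5.

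The genes of the lateral element moved in opposite directions. Sycp3 (ENSMUSG00000020059.10, GRCm38 chromosome 10, 88459569 to 88473236, plus strand) encodes the coiled-coil protein that assembles into fibres along the axis. It stood at 166 and 178 CPM in BMH21 libraries, against 125 and 124 CPM in mock libraries. Both BMH21 libraries were above both mock libraries by more than replicates differed. The means were 172 ± 8.31 and 125 ± 0.543 CPM (SD, n = 2 each). On the log2 scale it rose by 0.46 ± 0.04 (SE; edgeR adjusted p = 1.15e-15), with the smallest p of the 10 members. Exons of Chpt1, a gene of phosphatidylcholine synthesis on the opposite strand, cover 660 of the 1264 exonic bases of Sycp3, and although the library kit is labelled as stranded, it is not stated whether featureCounts used the strand. Chpt1 was at 122 and 123 CPM in BMH21 and at 112 and 109 CPM in mock libraries (log2 fold change 0.15 ± 0.04 (SE)), and its part in the Sycp3 value was not tested.

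Sycp2 (ENSMUSG00000060445.12, chromosome 2, 178345293 to 178407685, minus strand) encodes the large lateral element protein that SYCP3 binds. It was the member with the most counts, with 543 and 572 CPM in BMH21 libraries, against 614 and 608 CPM in mock libraries. Its BMH21 libraries were both below its mock libraries. The means were 558 ± 21 and 611 ± 3.75 CPM (SD, n = 2 each), and it fell by 0.13 ± 0.03 (SE) on the log2 scale (edgeR adjusted p = 2.31e-05). The size of this change lay within the middle 50% of all tested genes, and the gene had 17977 to 25742 counts a library. Per exon length, Sycp3 stood at 1.44 and 1.47 times the level of Sycp2 in BMH21 libraries and at 0.964 and 0.966 times in mock libraries. This ratio, chosen after the values were seen as were the other ratios given, was higher in both BMH21 libraries, and with 2 libraries a group an exact permutation test of it cannot pass 0.05. With the length of the longest coding transcript in place of all exons, the pair stood level in mock libraries, at 106.8 (Sycp3) and 106.9 (Sycp2) per kilobase on the CPM scale. Exons of Chpt1 cover 52.2% of the Sycp3 exonic bases, and the part of this overlap in these ratios and levels was not tested.

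Sycp1 (ENSMUSG00000027855.14, chromosome 3, 102818499 to 102936100, minus strand) encodes the transverse filament protein, whose ends lie in the lateral and central elements. Its level was 205 and 213 CPM in BMH21 libraries, against 175 and 171 CPM in mock libraries. The groups did not overlap. The means of 209 ± 5.69 and 173 ± 2.45 CPM (SD, n = 2 each) gave a log2 fold change of 0.27 ± 0.04 (SE; edgeR adjusted p = 1.91e-09). A processed pseudogene, Sycp1-ps1, shares 3.69% of the 50-base stretches of its longest coding transcript.

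**Figure D3:**
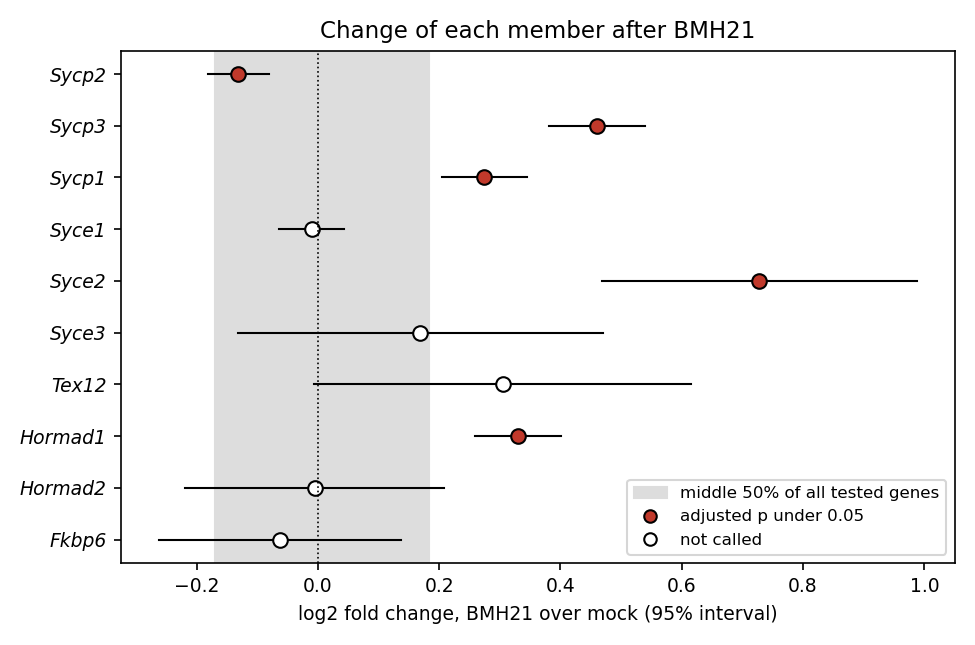
Log2 fold change of BMH21 over mock for each member, with its 95% interval from edgeR's quasi-likelihood fit (n = 2 libraries each); filled points passed an adjusted p of 0.05 and the grey band holds the middle 50% of all tested genes. Sycp3, Syce2, Hormad1 and Sycp1 lie above the band, Sycp2 and Syce1 have narrow intervals, and the intervals of Syce3 and Tex12 are wide.

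Among the 4 central element genes, 1 rose. Syce2 (ENSMUSG00000003824.13, chromosome 8, 84872111 to 84888221, plus strand), whose protein assembles with TEX12 into the fibres of the central element, was at 13.6 and 14.0 CPM in BMH21 libraries, against 8.89 and 7.74 CPM in mock libraries. It was low in mock, with both BMH21 libraries clearly above. The means were 13.8 ± 0.296 and 8.32 ± 0.810 CPM (SD, n = 2 each). Its rise of 0.73 ± 0.13 (SE) on the log2 scale was the largest of the 10 (edgeR adjusted p = 6.21e-06).

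Tex12 (ENSMUSG00000032065.7, chromosome 9, 50556819 to 50561325, minus strand), the partner of Syce2, read 7.94 and 10.2 CPM in BMH21 libraries, against 8.60 and 5.98 CPM in mock libraries. The groups overlapped, and each pair of replicates differed widely. The log2 fold change was 0.30 ± 0.16 (SE), with a 95% interval of -0.01 to 0.61 and an edgeR adjusted p of 0.143, so a rise as large as that of Sycp3 lay within the interval. It passed the test without BMH21 replicate 1 (0.47) and without mock replicate 1 (0.60). The Tex12 and Syce2 transcripts therefore cannot be said to differ in response from their calls alone, since their intervals overlap.

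Syce1 (ENSMUSG00000025480.6, chromosome 7, 140777229 to 140787852, minus strand) encodes the central element protein that meets SYCP1 and SYCE3. It was at 414 and 427 CPM in BMH21 libraries, against 428 and 419 CPM in mock libraries, and the groups overlapped. The means of 420 ± 8.89 and 423 ± 6.58 CPM (SD, n = 2 each) gave a log2 fold change of -0.01 ± 0.03 (SE), with a 95% interval of -0.06 to 0.04 (edgeR adjusted p = 0.840). That interval lies below the intervals of Syce2 (0.47 to 0.99), Sycp3 (0.38 to 0.54), Hormad1 (0.26 to 0.40) and Sycp1 (0.20 to 0.34).

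Syce3 (ENSMUSG00000078938.10, chromosome 15, 89390174 to 89410503, minus strand), a small central element protein needed to start synapsis, had 10.3 and 7.45 CPM in BMH21 libraries and 7.58 and 8.16 CPM in mock libraries. BMH21 replicate 1 was high and replicate 2 was the lowest of the 4 libraries. Its log2 fold change of 0.17 ± 0.15 (SE) had an interval of -0.13 to 0.47 (edgeR adjusted p = 0.456). Both Syce3 and Tex12 rested on few counts, 255 to 340 and 187 to 378 a library, and both intervals include a change of the size seen in Sycp1.

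Of the HORMA-domain genes, Hormad1 rose and Hormad2 did not pass the test. Hormad1 (ENSMUSG00000028109.15, chromosome 3, 95559677 to 95587671, plus strand), required in mouse for efficient synapsis and break formation, was at 198 and 203 CPM in BMH21 libraries, against 160 and 159 CPM in mock libraries. Its groups were well apart. The means were 201 ± 3.60 and 160 ± 0.868 CPM (SD, n = 2 each), and the rise was 0.33 ± 0.04 (SE) on the log2 scale (edgeR adjusted p = 8.68e-12). Of the 50-base stretches of its longest coding transcript, 27.2% also occur in other annotated transcripts, mainly those of the processed pseudogenes Gm15529 and Gm7167, and how such reads were counted is not stated.

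Hormad2 (ENSMUSG00000020419.12, chromosome 11, 4345814 to 4441105, minus strand), which acts in the surveillance of unsynapsed axes, read 16.5 and 15.8 CPM in BMH21 libraries, against 16.3 and 16.1 CPM in mock libraries. All 4 libraries were alike. The log2 fold change was -0.01 ± 0.11 (SE; edgeR adjusted p = 0.980), with an interval of -0.22 to 0.21, which lies below that of Hormad1. Per exon length, Hormad1 stood at 19.0 and 20.4 times the level of Hormad2 in BMH21 libraries and at 15.6 and 15.7 times in mock libraries.

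Fkbp6 (ENSMUSG00000040013.12, chromosome 5, 135291704 to 135350044, minus strand) was at 17.8 and 19.6 CPM in BMH21 libraries, against 19.9 and 19.2 CPM in mock libraries. The groups overlapped, with a log2 fold change of -0.06 ± 0.10 (SE; 95% interval -0.26 to 0.14; edgeR adjusted p = 0.717). Its interval lies below those of the 4 members that rose.

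In the authors' deposited table, which holds DESeq2 results for the same counts, 5 of the 10 members had an adjusted p under 0.05, and all 5 were also called by edgeR. Its log2 fold changes for them were 0.73 (Syce2), 0.46 (Sycp3), 0.33 (Hormad1), 0.27 (Sycp1) and -0.13 (Sycp2) in the authors' deposited table. There, 10.9% of 15733 genes were called higher and 7.16% lower. DESeq2 run on the 13793 tested genes called 12.8% higher and 8.66% lower and made the same 5 calls among the members.

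Levels of different genes were set beside each other as FPKM, the CPM value divided by the length of all annotated exons in kilobases. Of the 50-base stretches of the longest coding transcript, 50.4% in Sycp3 and 27.2% in Hormad1 also occur in transcripts of other genes. The part of this sharing in their FPKM and in the order of levels was not tested. Syce1 had the highest level, 288 ± 6.09 FPKM in BMH21 and 290 ± 4.51 FPKM in mock libraries (SD, n = 2 each). It took 38.8% to 39.0% of the summed FPKM of the 10 genes in BMH21 libraries, against 42.9% to 43.1% in mock libraries. In BMH21 libraries Sycp3 came next (136 ± 6.57 FPKM), followed by Hormad1 (116 ± 2.08 FPKM), Sycp2 (93.4 ± 3.53 FPKM) and Sycp1 (58.8 ± 1.6 FPKM; SD, n = 2 each). In mock libraries Sycp2 (102 ± 0.629 FPKM), Sycp3 (98.8 ± 0.429 FPKM) and Hormad1 (92.4 ± 0.502 FPKM) followed Syce1, with Sycp1 at 48.6 ± 0.690 FPKM.

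The other 5 genes were far lower. In BMH21 libraries Syce3 averaged 16.0, Fkbp6 10.7, Tex12 8.93, Syce2 7.03 and Hormad2 5.89 FPKM, and in mock libraries Syce3 averaged 14.2, Fkbp6 11.1, Tex12 7.18, Hormad2 5.91 and Syce2 4.23 FPKM. Neighbours in this low range were not all separated by their spread: in BMH21 libraries the means of Fkbp6 and Tex12 were closer than the sum of their SDs (0.753 and 1.57 FPKM), and in mock libraries the values of Tex12 and Hormad2 overlapped. Syce2 lay above Hormad2 in both BMH21 libraries and below it in both mock libraries. With the longest coding transcript as length, Syce2 and Hormad2 averaged 8.20 and 8.18 FPKM in BMH21 libraries and 4.93 and 8.21 FPKM in mock libraries. Syce2 was then below Hormad2 in BMH21 replicate 1 (8.08 against 8.36 FPKM) and above it in replicate 2 (8.32 against 8.01 FPKM). Their separation in BMH21 libraries thus rests on the length used. Syce1 exceeded its fellow central element gene Syce2 by 41.0 and 41.0 times in BMH21 libraries and by 64.9 and 72.9 times in mock libraries. Together the 10 genes took 0.158% and 0.164% of all counts in BMH21 libraries, against 0.158% and 0.155% in mock libraries, a smaller difference than that of any member that rose.

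**Figure D4:**
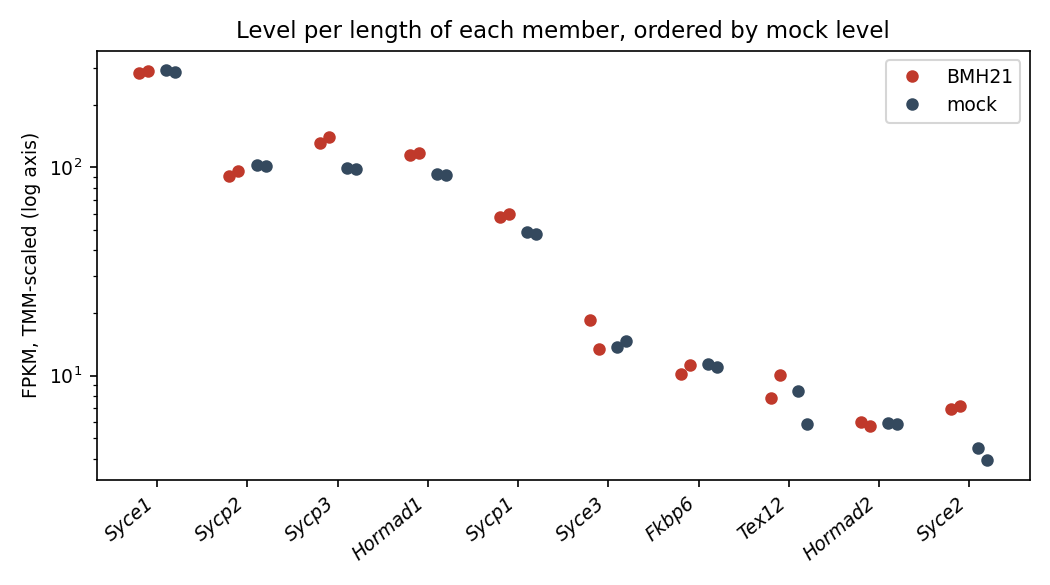
Level per length of each member in every library, in FPKM on a log axis, ordered by the mean of the mock libraries; each point is 1 library. Syce1 stands highest near 290 FPKM, Sycp3 stands above Sycp2 in BMH21 libraries and close to it in mock libraries, and Syce2 is lowest in mock libraries only.

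Among so few genes, the calls by E-box are a description with no test. Of the 6 members with CACGTG, 4 rose and 2, Tex12 and Fkbp6, did not pass the test. Of the 4 without it, 0 rose, 1 fell and 3 did not pass. Over autosomal tested genes with a RefSeq promoter, 17.1% of 1128 with CACGTG were called higher and 16.8% lower, against 15.4% and 12.9% of 9179 without it; these differences were not tested, and the larger was among genes called lower. The other motifs searched, on both strands, were the motif reported for STRA8 and MEIOSIN, CNCCTCAG, the E2F6 site TCCCGC and the MYB core AACNGT, where N is any base. CNCCTCAG was in the windows of 5 members (Fkbp6, Hormad2, Syce2, Sycp1 and Tex12), against 9.12% of all genes; 16.9% of 1163 autosomal tested genes with it were called higher and 13.1% lower, against 15.4% and 13.4% of 9144 without it. TCCCGC was in 5 (Hormad1, Syce2, Sycp1, Sycp3 and Tex12), against 22.0% of all genes, and 4 of these 5 members rose. In the 250 bases before the start alone, it was in 4 of these 5, without Sycp1. All genes include some not tested here. The share with TCCCGC was larger among autosomal tested genes, 3838 with it and 6469 without. Of 3838 autosomal tested genes with TCCCGC, 18.3% were called higher and 13.3% lower, against 14.0% and 13.4% of 6469 without it. AACNGT was in 4 members (Fkbp6, Hormad1, Syce2 and Sycp1), against 28.9% of all genes; 14.2% of 2577 autosomal tested genes with it were called higher and 14.4% lower, against 16.0% and 13.0% of 7730 without it. These matches describe letters in a window, and whether a factor binds there was not measured.

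Genes closest in profile to Sycp3 were sought without regard to the lists used here. The 3 found were on none of the lists, which says little, since few of the genes searched were listed. Of 7559 other tested genes averaging 10 CPM or more, the 3 with the closest profile over the 4 libraries, by Euclidean distance of centred log2 CPM, were Adam17, a membrane protease gene (distance 0.0125), Zfand5, a zinc-finger gene (0.0207), and Wrap73 (0.0213). Their fold changes were fixed by this choice. Adam17 read 47.1 and 50.7 CPM in BMH21 libraries, against 35.5 and 35.1 CPM in mock libraries.

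Genes that work with the complex were read from 6 lists by role, 64 tested genes in all, of which 16 rose (25%), 18 fell (28.1%) and 30 did not pass the test. Their median log2 fold change was -0.02. Of all 13793 tested genes, 16.5% were called higher and 12.5% lower. Among autosomal genes in the members' CPM range these shares were 20.2% and 17.3%. Some partner genes lay outside that range, and Tex11 is X-linked, so neither background is matched to the partner genes. Both counts fell short of 16 and 18 when any 1 library was left out, most of all the lower count without a mock library. Over all tested genes, too, fewer were called higher and lower in those fits, which hold fewer samples. With all libraries, 12 partner genes were called higher and 19 lower under upper quartile scaling, and 14 and 16 in DESeq2. No list moved in a single direction.

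Of 8 cohesins and axis partners, 3 rose and 2 fell. Smc1b, which encodes the meiotic SMC1 cohesin subunit, stood at 271 and 296 CPM in BMH21 libraries, against 234 and 228 CPM in mock libraries (log2 fold change 0.29 ± 0.03 (SE), edgeR adjusted p = 3.55e-11). The gene listed as 4930447C04Rik, also named Six6os1, encodes a further central element protein that binds SYCE1 in mouse, and it was at 13.7 and 14.0 CPM in BMH21 libraries, against 9.15 and 8.64 CPM in mock libraries (0.64 ± 0.13 (SE)). Like Syce2, it was a central element gene of low level with both BMH21 libraries above both mock libraries. Skp1, a ubiquitin ligase subunit, rose by 0.12 (not called under upper quartile scaling, 0.07, or without mock replicate 1), and the Syce1-like gene Syce1l fell by 0.31 on the log2 scale (not called without BMH21 replicate 2 or mock replicate 1). Rec8, the meiotic kleisin, named after its value was seen, fell by 0.51 and lost its call in DESeq2 and without BMH21 replicate 1 or mock replicate 2. The axis cohesin gene Stag3, also named after its value was seen, was at 859 and 899 CPM in BMH21 libraries, against 884 and 875 CPM in mock libraries (log2 fold change -0.00 ± 0.02 (SE)).

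Of 6 axis-bound factors of double-strand break formation, 1 rose and 1 fell. Iho1, whose protein binds HORMAD1 and helps recruit the break machinery to the axis, was at 35.8 and 35.0 CPM in BMH21 libraries, against 25.4 and 26.0 CPM in mock libraries (log2 fold change 0.47 ± 0.08 (SE), edgeR adjusted p = 3.69e-06). Spo11, the gene of the catalytic subunit that cuts DNA, fell by 0.16 on the log2 scale, a call lost without mock replicate 1.

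Among 10 synapsis-promoting recombination factors, 3 rose and 1 fell. Tex11, an X-linked gene of this class, was at 6.76 and 8.07 CPM in BMH21 libraries, against 0.191 and 0.192 CPM in mock libraries. Its log2 fold change was 5.25 ± 0.31 (SE). With mock levels so near 0, the size of this change is less certain than its direction. Msh4, which encodes a MutS homologue that stabilises recombination intermediates, was at 17.4 and 21.1 CPM in BMH21 libraries and 10.5 and 13.0 CPM in mock libraries (0.72 ± 0.12 (SE)). Hfm1, a helicase gene, rose by 0.20 (not called without mock replicate 2), and Ccnb1ip1, which encodes the crossover factor HEI10, fell by 0.56 on the log2 scale (not called without BMH21 replicate 2).

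Of 12 genes of signalling on unsynapsed axes, where HORMAD proteins act upstream of ATR, 1 rose and 3 fell. Topbp1, the gene of the ATR activator, was at 89.4 and 86.3 CPM in BMH21 libraries, against 58.6 and 55.3 CPM in mock libraries (log2 fold change 0.62 ± 0.05 (SE), edgeR adjusted p = 2.47e-15). Mdc1, which encodes the protein that spreads the signal into chromatin, fell by 0.17, Rad9a by 0.67 and Brca1 by 0.54 on the log2 scale, the last not called without BMH21 replicate 1.

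Of 10 genes tied to disassembly of the complex, 2 rose and 6 fell. Fewer were called when any 1 library was left out, most of all among genes called lower when a mock library was left out. Calls over all tested genes also fell in those fits, which hold fewer samples. Under upper quartile scaling 1 was called higher. Cdk1, the kinase gene of entry into division, rose by 0.36 ± 0.05 (SE), whereas Plk1, the gene of a kinase that phosphorylates central element proteins, fell by 0.21 and Aurkb by 0.56 on the log2 scale. Hspa2, a chaperone gene required for desynapsis in mouse, fell by 0.07, a call lost without mock replicate 1 or mock replicate 2. Of 18 chaperone and piRNA genes related to FKBP6, 6 rose and 5 fell, but only 1 was called lower without mock replicate 1, 2 without mock replicate 2 and 3 without BMH21 replicate 1, and 3 were called higher without mock replicate 2. Genes with the smallest p were Hsp90ab1 (0.37) and Piwil2 (0.30), which rose, Piwil1 (-0.16), which fell, and Tdrd5 (0.17), which rose. Fkbp6 itself did not pass the test, as given above.

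**Figure D5:**
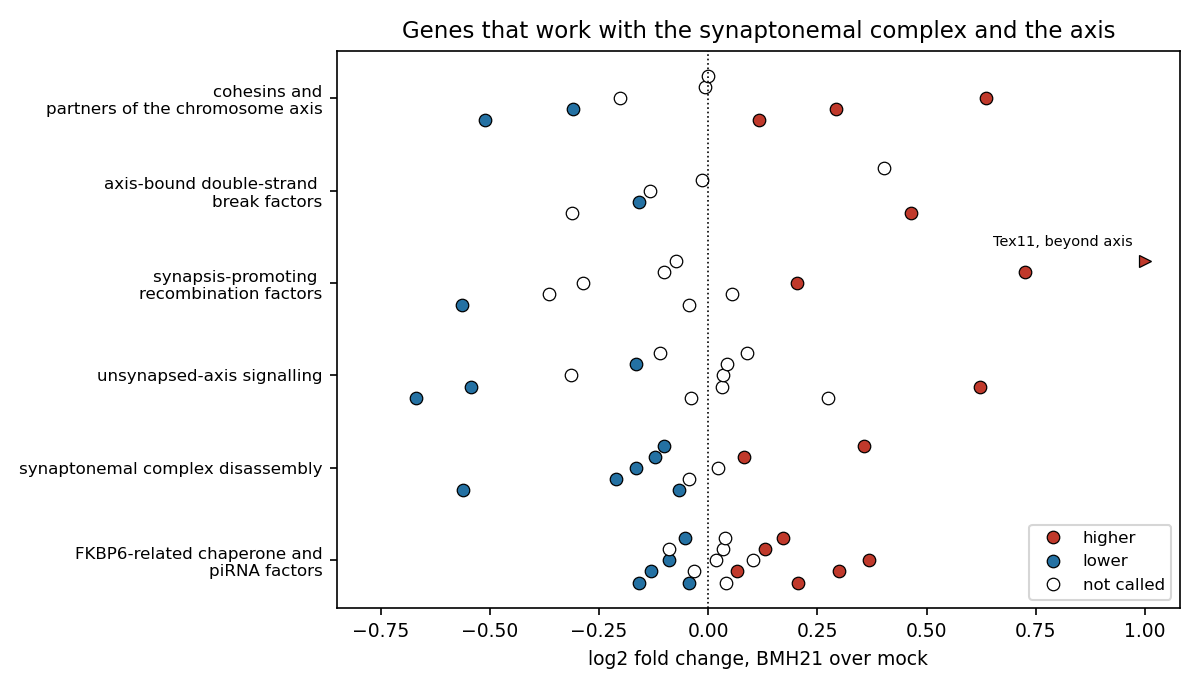
Log2 fold change of BMH21 over mock for the 64 tested genes in the 6 lists; each point is 1 gene, red called higher, blue called lower and white not called at an adjusted p of 0.05 (edgeR, n = 2 libraries each), with vertical offsets only for legibility. Every list holds genes on both sides of 0, and Tex11 (5.25) is drawn at the edge of the axis.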

How the data were processed

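TRIzol RNA and a stranded mRNA kit were used, per the labels' protocols. The submitters' processing notes name mm10 and the tools fastp, STAR, SAMtools, featureCounts and DESeq2; versions, strand setting and treatment of multiply mapped reads are not given in the sources used here. The authors deposited 1 table of 15733 genes with raw read counts, on which all tests here were run. Its size-factor-normalized values (signal) were made by the authors from these counts and were not tested. The deposited log2 fold changes, Wald score and p-values, per the file headers from DESeq2, are quoted only where named.

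Counts were tested in R 4.3.3 with edgeR 4.0.16: filterByExpr (minimum count 10), TMM scaling and the quasi-likelihood test with group alone, adjusted over 13793 genes. The standard error is the log2 fold change divided by the square root of F, an approximation. The spread between the 2 replicates of a group was estimated with sharing of information over genes (common biological coefficient of variation 4.09%). Alternatives were DESeq2 1.42.0, other scalings and filters, a replicate block and leaving out each library. On simulated counts of the 13793 genes (BMH21 over mock), the test recovered 29 of 50 genes given a 1.25-fold change and 42 of 50 given 1.5-fold. It recovered 42 of 50 given 2-fold and 50 of 50 given 4-fold, and 9 of its 172 calls were false. Only these genes were given a change, and none was of very low level. In the data 4013 genes were called, so recovery and the share of false calls may differ there.

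Although the processing notes name mm10 (GRCm38), positions in the table differ from GENCODE M21 for all but 369 of 15670 genes matched by identifier. The annotation used for counting is thus not known. Coordinates, exon overlaps and exon lengths given here are those of GENCODE M21 (GRCm38) and may not be those counted. Promoters are those of RefSeq (GRCm38.p6), where all 10 symbols matched. Replicates were separate libraries by their counts, with a chi-square divided by its degrees of freedom of 3.78 (BMH21) and 3.23 (mock). The genes, lists and rules were chosen with earlier results of these data known. All 10 members were named; from each list of partners, up to 4 called genes with the smallest p and any called gene changed at least 2-fold; from each marker list, the 2 most abundant; other genes are said to be named after their values were seen, as are Chpt1 and the genes sharing sequence.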

Additional observations from a re-analysis of the deposited data

How the results depend on the processing

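The 5 calls among the members held under all 11 alternatives: log2 fold changes ran from 0.41 to 0.51 for Sycp3, 0.64 to 0.84 for Syce2, 0.28 to 0.35 for Hormad1, 0.23 to 0.30 for Sycp1 and -0.18 to -0.10 for Sycp2. With 1 library left out, Tex12 ran from 0.079 to 0.60 and was called without BMH21 replicate 1 or mock replicate 1, so 4 to 5 members were called higher; values that did not pass the test changed sign for Syce1 (-0.035 to 0.0098), Syce3 (-0.078 to 0.38), Hormad2 (-0.038 to 0.022) and Fkbp6 (-0.14 to 0.0057). Of the partner genes, 9 to 15 were called lower with 1 library left out, against 18 (9 without mock replicate 1 and 10 without mock replicate 2); fewer samples enter those fits. The labels do not say whether same-numbered libraries share an animal or day. The correlation of their deviations was 0.012, which cannot show whether they were paired. With the replicate block 4 members were called higher and 1 lower, and 2189 and 1595 of all genes, against 2282 and 1731. With the longest coding transcript as length, mean levels over the 4 libraries were 55.6 (Sycp1), 102 (Sycp2), 127 (Sycp3), 6.57 (Syce2), 119 (Hormad1), 8.19 (Hormad2) and 13.2 FPKM (Fkbp6), against 53.7, 97.9, 117, 5.63, 104, 5.90 and 10.9 FPKM; Syce3 was at 17.4, against 15.1 FPKM, Tex12 at 8.16, against 8.05 FPKM, and Syce1 had the same length. When only the 250 bases before the start were searched, CNCCTCAG was in 3 members and TCCCGC in 4, without Sycp1. The E-box stayed in 6 members and AACNGT in 4. The wide intervals of Syce3 and Tex12 limit what can be said of the central element.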
